A study of Mus musculus with 15 samples.

Results

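Gene expression in the striatum was compared between male mice 14 days after intracerebral hemorrhage (ICH, a bleed into the brain tissue) and sham mice. The 10 arrays described here are those whose titles name sham (5 arrays) or ICH (5 arrays), out of 15 arrays in the study. The other 5 arrays come from ICH mice given Buyang Huanwu decoction, a herbal formula (BYHWD), and are not compared here. They enter through the spread between arrays, the choice of probes to test and the quantile normalization used as an alternative. Sham and ICH mice alike received distilled water by gavage, and all were perfused with saline before the basal ganglia of the injured side were taken. How the hemorrhage was induced, the strain and the age are not given in the labels. Nothing in the labels states that every array is a different animal. The p-values below set each difference against the spread between arrays, taken from all 15 unless stated otherwise. That spread may thus be technical.

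Each RNA sample was hybridised in 1 colour to an Agilent array of long noncoding and messenger RNAs. A level below is the log2 processed signal of a probe minus the 75th percentile of its own array, so that 0 marks that percentile. Levels of different probes are not comparable. Arrays that share a scan time in their file headers are called a slide. Slide 1 held all 5 sham arrays with ICH 2 and ICH 3, and slide 2 held ICH 1, ICH 4 and ICH 5. A pooled comparison of ICH with sham therefore mixes injury with slide, while ICH 2 and ICH 3 can be set against sham within slide 1. Both are given throughout. The ICH arrays of slide 2 are also set against sham, where slide and injury cannot be told apart, and against the ICH arrays of slide 1, where both sides are labelled ICH. These comparisons share arrays, so they are shown side by side and none is support for another.

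Some array measures moved with the slide. The 75th percentile of the signal was 430 to 537 units in sham, 419 and 451 on ICH 3 and ICH 2, and 261 to 303 units on the ICH arrays of slide 2. In sham, the level of the 3' Gapdh control probe was 0.23 ± 0.15 log2 units above that of the 5' probe (SD, n = 5). That excess, which grows as RNA degrades, was 0.33 on ICH 2 and 0.52 on ICH 3 and ran from 0.61 to 0.79 on slide 2. The highest sham value was 0.41, so ICH 3 exceeded every sham array on its own slide. The 3' minus 5' difference of the Pgk1 control overlapped between groups. It was 7.36 to 7.69 in sham, 7.42 to 7.68 on ICH 2 and ICH 3, and 7.58 to 7.85 on slide 2. The part of these measures in the results below was not tested. The share of spots well above background was 81.4% to 86.2%.

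The striatum is the deep forebrain region where hemorrhage is commonly modelled in mice. After a bleed, microglia and blood-borne leukocytes clear the hematoma, astrocytes form a border around it, and lipid from dead cells and myelin is taken up and carried away. Class I histocompatibility (MHC) genes, which present peptides on the cell surface, are low in resting brain cells and are induced by interferons. Gasdermin D forms the membrane pores of pyroptosis, an inflammatory cell death. Apolipoprotein E carries cholesterol and phospholipid between glia and neurons. Only 45 tested probes carry an accession that matches a gene symbol, so the genes below are those 45 and not a survey of the tissue. The 3 with a named probe among 44 cell type markers are Apoe, Mbp and Mzb1. No marker of striatal neurons has one, so the tissue label was not checked against such markers.

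The promoters of 2 class I genes on the array are shown because this family has well-known shared control elements. H2-Q7 passed the test within slide 1, whereas H2-M2 did not (limma adjusted p = 0.222), and the pair was picked as class I genes. Each sequence is the 250 bases before the RefSeq start (build GRCm38.p6), printed 5′ to 3′ on the gene's own strand. H2-Q7 is on the plus strand (chr17:35438905-35439154) and H2-M2 on the minus strand (chr17:37483555-37483804). Capitals mark matches to 4 patterns: GGGNNTTCC, as bound by NF-kappaB factors, AGTTTCNNTTC, as in interferon-stimulated response elements, TGATGAC, as in the X2 box, and CCAAT, the core of the Y box.
H2-Q7: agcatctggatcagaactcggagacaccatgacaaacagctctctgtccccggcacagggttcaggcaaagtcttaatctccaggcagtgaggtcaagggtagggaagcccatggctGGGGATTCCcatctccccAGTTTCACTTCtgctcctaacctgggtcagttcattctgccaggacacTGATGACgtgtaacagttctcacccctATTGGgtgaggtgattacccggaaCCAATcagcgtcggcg
H2-M2: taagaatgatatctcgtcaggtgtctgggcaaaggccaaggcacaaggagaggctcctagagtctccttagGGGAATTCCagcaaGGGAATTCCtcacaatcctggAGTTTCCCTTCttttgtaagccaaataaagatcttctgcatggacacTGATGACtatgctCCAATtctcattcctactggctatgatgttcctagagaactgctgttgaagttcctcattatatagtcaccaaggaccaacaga

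In both windows the 4 patterns followed the same order towards the gene. H2-Q7 has 1 match to the first pattern, starting 133 bases before the start site, then the interferon-type pattern at 115 bases and TGATGAC at 67 bases. It has 2 matches to CCAAT, at 16 bases and, on the opposite strand, at 40 bases. H2-M2 has 2 matches to the first pattern, at 179 and 165 bases, then the interferon-type pattern at 144, TGATGAC at 97 and CCAAT at 84 bases. Both strands were searched, and no matches overlapped. Among all 32851 windows of this length in the table, 4.98% hold the first pattern, 0.435% the interferon-type pattern, 2.69% TGATGAC and 33.8% CCAAT. All 4 occur together in 5 windows, those of H2-D1, H2-M2, H2-Q4, H2-Q6 and H2-Q7. The patterns were chosen with these sequences in view, and a match is a run of letters, not a shown binding site. Of the 45 named genes, 32 have a window in the table. The 3 windows of Apoe, which passed the test within slide 1 too, hold none of the 4 patterns, which says only that these letters are not in those windows.

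H2-Q7, Apoe and Gsdmd were higher on the ICH arrays of either slide than on the sham arrays, which were all on slide 1. H2-Q7 encodes a class Ib histocompatibility protein of the Qa-2 group. Its level was 1.46, 2.05, 1.90, 1.62 and 2.36 on sham 1 to sham 5. It was 3.70 and 3.74 on ICH 2 and ICH 3, and 4.05, 2.94 and 4.03 on ICH 1, ICH 4 and ICH 5. Every ICH array exceeded the highest sham array, and ICH 4 came nearest to sham. The ICH mean was 3.70 ± 0.45 and the sham mean 1.88 ± 0.35 (SD, n = 5 each). The difference was 1.82 ± 0.27 SE on the log2 scale, or 3.53-fold (95% interval 2.38 to 5.23, limma adjusted p = 0.00436). Within slide 1 it was 1.85 ± 0.36 SE, or 3.60-fold (95% interval 2.11 to 6.13, limma adjusted p = 0.0451). The ICH arrays of slide 2 stood 1.80 above sham (limma adjusted p = 0.000469), and their difference from the ICH arrays of slide 1 was -0.05 (95% interval -0.89 to 0.79). The H2-Q genes are nearly identical in sequence, so the probe may read relatives of H2-Q7 as well. The tissue is bulk, so more cells of a type and more RNA per cell cannot be told apart for this or any gene below.

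Apoe, the lipid carrier gene, had levels of 7.60, 7.56, 7.42, 7.34 and 7.51 on sham 1 to sham 5. It stood at 8.50 and 8.74 on ICH 2 and ICH 3 and at 8.21, 8.07 and 8.63 on ICH 1, ICH 4 and ICH 5. The lowest ICH array lay above the highest sham array, and slide 1 held the highest ICH array. The sham mean was 7.49 ± 0.11 and the ICH mean 8.43 ± 0.28 (SD, n = 5 each), a difference of 0.94 ± 0.17 SE or 1.92-fold (95% interval 1.50 to 2.46, limma adjusted p = 0.00852). Within slide 1 the difference was 1.13 ± 0.21 SE or 2.19-fold (95% interval 1.60 to 2.99, limma adjusted p = 0.0405). For slide 2 against sham it was 0.81 (limma adjusted p = 0.00303).

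Gsdmd had levels of -2.17, -1.89, -2.02, -2.27 and -1.81 on sham 1 to sham 5. It stood at -0.93 and -0.72 on ICH 2 and ICH 3 and at -1.14, -1.44 and -1.07 on ICH 1, ICH 4 and ICH 5. Again no ICH array overlapped with sham, and the pair on slide 1 was the highest. The means were -2.03 ± 0.19 in sham and -1.06 ± 0.27 in ICH (SD, n = 5 each). The pooled difference of 0.97 ± 0.17 SE corresponds to 1.96-fold (95% interval 1.52 to 2.54, limma adjusted p = 0.00878). Within slide 1 it was 1.21 ± 0.21 SE or 2.31-fold (95% interval 1.68 to 3.17, limma adjusted p = 0.0352), and for slide 2 against sham 0.82 (limma adjusted p = 0.00336). The ICH arrays of the 2 slides differed by -0.39 for Gsdmd (95% interval -0.89 to 0.11) and by -0.32 for Apoe (95% interval -0.81 to 0.17), neither past the test.

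These 3 genes were 3 of the 45 past the test within slide 1, where 0.346% of all 51669 tested probes passed (0.341% higher and 0.00581% lower). The shares are not like for like. Each named probe was read from 10 spots and was well above background on all 10 arrays, while 5 of 15 arrays sufficed for testing. The within-slide comparison takes its spread from all 15 arrays, and with the 7 arrays of slide 1 alone all 3 genes passed as well (limma adjusted p = 0.0255 for H2-Q7, 0.0227 for Apoe and 0.0293 for Gsdmd). The pooled calls held in 20 of 21 alternatives for each gene and were lost without the ICH arrays of slide 2 (adjusted p = 0.0594 for H2-Q7 and 0.0595 for Apoe and Gsdmd). Among the 20, the slide as a fixed block is the within-slide comparison itself and not a separate check. The within-slide calls were lost in 12 of 19 alternatives for H2-Q7, 9 for Apoe and 11 for Gsdmd, while the differences stayed between 1.60 and 1.97, 1.01 and 1.25, and 0.82 and 1.31. Leaving out any of ICH 1, ICH 2 and ICH 3 or any of sham 1 to sham 4 ended all 3 calls, and leaving out ICH 5 ended that of H2-Q7. The adjusted p was largest without ICH 3, at 0.786, 0.829 and 0.786. The size of the slide 2 difference from sham depended on the processing, at 1.30 for Apoe after quantile normalization and 0.49 for Gsdmd after normexp with quantiles.

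H2-M2, another class Ib gene, did not pass the test. It stood at 3.13 and 3.19 on ICH 2 and ICH 3, against 2.13 to 2.49 on the sham arrays. On slide 2 it stood at 2.88, 2.09 and 2.73 on ICH 1, ICH 4 and ICH 5, so that ICH 4 lay below every sham array. The within-slide difference was 0.82 ± 0.23 SE or 1.77-fold (95% interval 1.26 to 2.49, limma adjusted p = 0.222), and the pooled difference was 0.47 (adjusted p = 0.141). Over all probes, 7.52% had both ICH arrays of slide 1 above all sham arrays, and 3.36% had both below, so that separation alone is not rare.

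**Figure D1:**
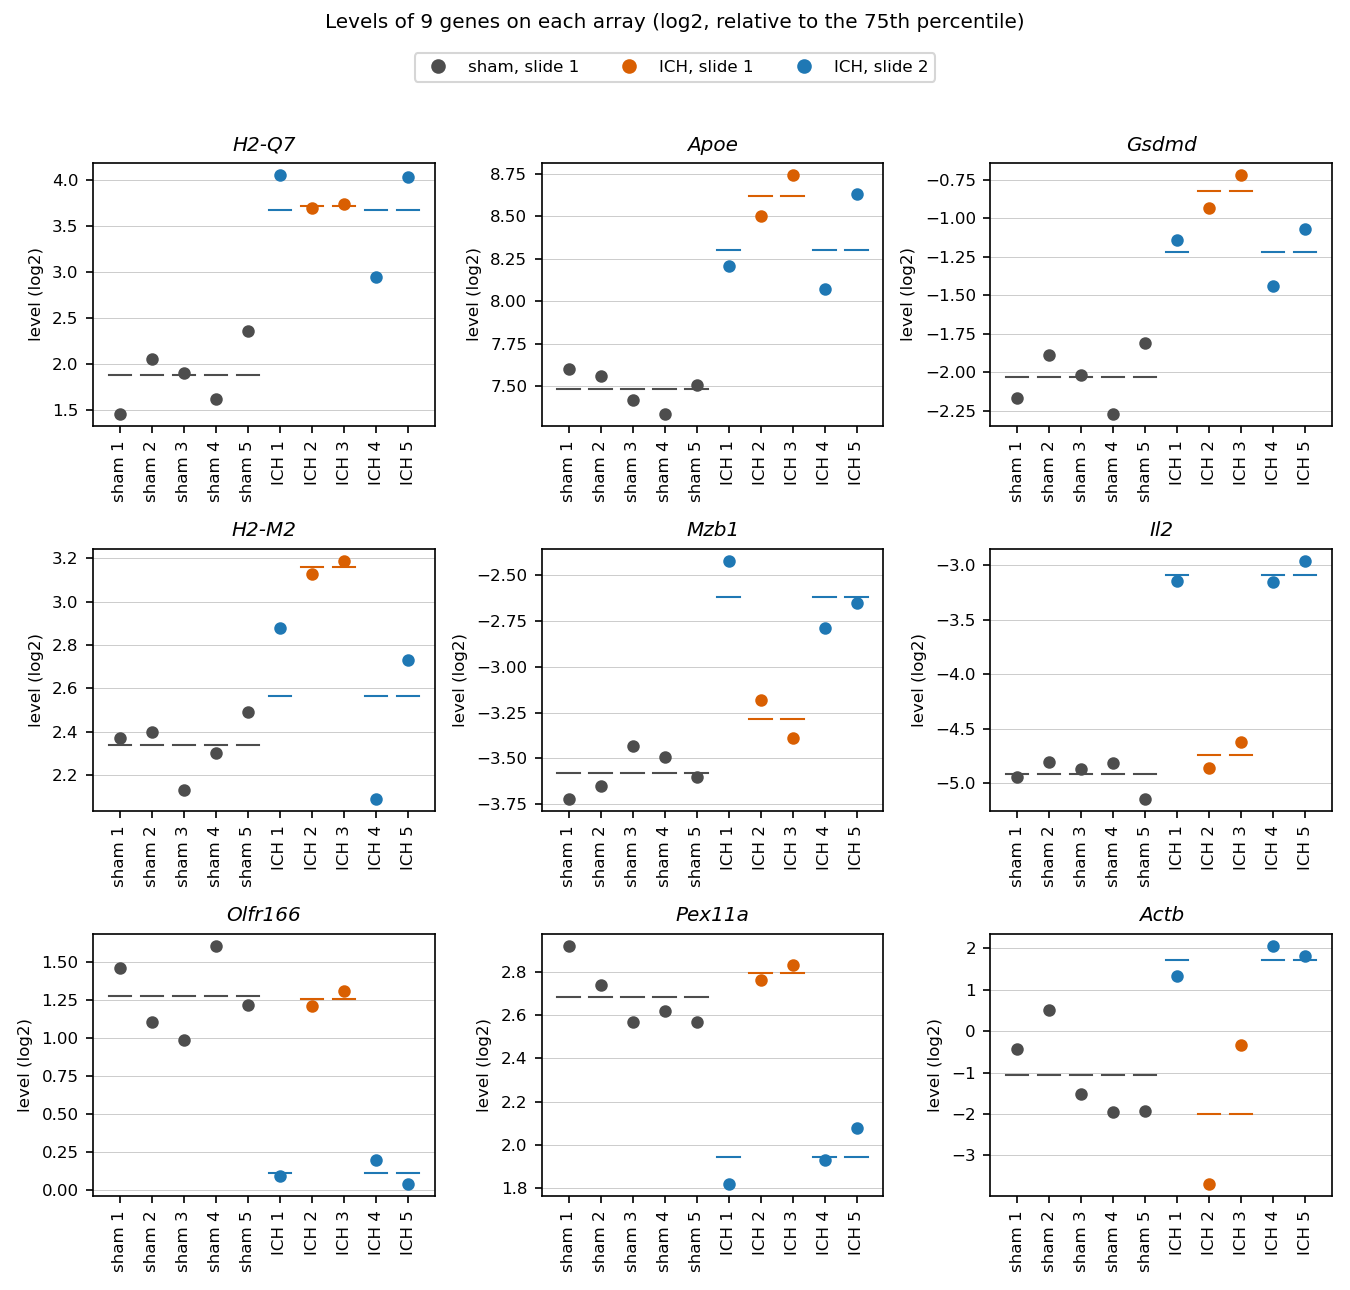
Levels of 9 genes on each of the 10 arrays, in log2 units relative to the array's 75th percentile, with sham arrays in grey, ICH arrays of slide 1 in orange and ICH arrays of slide 2 in blue; bars mark the mean of each colour. For H2-Q7, Apoe and Gsdmd the ICH arrays of either slide lie above the sham arrays, which are all on slide 1. On the ICH arrays, Il2 lies at -3.16 to -2.96 on slide 2 and at -4.86 and -4.62 on slide 1. Olfr166 and Pex11a lie low on slide 2 only.

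The lymphocyte genes Mzb1 and Il2 passed the pooled test and differed by slide. Mzb1 encodes an endoplasmic reticulum protein of B and plasma cells, and Il2 the growth cytokine of T cells. Mzb1 stood at -3.72 to -3.43 in sham, at -3.18 and -3.39 on ICH 2 and ICH 3, and at -2.42, -2.79 and -2.65 on ICH 1, ICH 4 and ICH 5. All ICH arrays lay above sham, but the slide 1 pair lay close to it. The pooled difference was 0.69 ± 0.16 SE or 1.61-fold (95% interval 1.28 to 2.04, limma adjusted p = 0.0267). It was 0.29 within slide 1 (limma adjusted p = 0.842) and 0.96 for slide 2 against sham, and the ICH arrays of slide 2 exceeded those of slide 1 by 0.66 ± 0.15 SE (limma adjusted p = 0.00569).

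For Il2 the ICH arrays of slide 2 stood apart. It stood at -5.14 to -4.80 in sham and at -4.86 and -4.62 on ICH 2 and ICH 3, the first within the sham range and the other just above it. On ICH 1, ICH 4 and ICH 5 it stood at -3.15, -3.16 and -2.96, above every array of slide 1. The pooled difference was 1.16 ± 0.31 SE (limma adjusted p = 0.0432), against 0.17 within slide 1 (95% interval -0.14 to 0.48) and 1.82 for slide 2 against sham. The ICH arrays of slide 2 exceeded those of slide 1 by 1.65 ± 0.16 SE or 3.14-fold (limma adjusted p = 1.08e-05). These are dim probes. After normexp (offset 50) together with quantile normalization, the slide 2 differences from sham were 0.47 for Il2 and 0.33 for Mzb1, and the pooled calls of both were lost (adjusted p = 0.0649 and 0.0509). The pooled call of Il2 was lost with quantile normalization alone as well (adjusted p = 0.0505) and with median centring (adjusted p = 0.0537).

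Of the 45 genes, 5 passed the pooled test, H2-Q7, Apoe, Gsdmd, Mzb1 and Il2, and all 5 were higher in ICH. Over all tested probes 4.95% passed, 4.01% higher and 0.946% lower. The median pooled difference was 0.15 over the 45 genes and 0.045 over all probes. With the slide as a random block, the pooled differences of Mzb1 and Il2 were 0.46 and 0.59 (limma adjusted p = 0.288 and 0.499). Their pooled calls were lost in 13 and 17 of 21 alternatives, including for both without ICH 1, ICH 4 or ICH 5 and without any sham array but sham 3, whose removal ended the call of Il2 alone.

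No named gene was lower in ICH past the pooled test. On that side the lowest p-values were those of Olfr166, an olfactory receptor gene, Lhx1, a LIM homeobox transcription factor gene, Pex11a, a peroxisome division gene, Duox1, a hydrogen peroxide-producing oxidase gene, and Spats1, a gene named for spermatogenesis. Olfr166 stood at 0.99 to 1.61 in sham, at 1.21 and 1.31 on ICH 2 and ICH 3, and at 0.09, 0.20 and 0.04 on ICH 1, ICH 4 and ICH 5. The slide 1 ICH arrays lay within the sham range, and the slide 2 arrays lay far below it. The difference was -0.02 ± 0.15 SE within slide 1 and -1.17 ± 0.13 SE for slide 2 against sham, or 0.446-fold (limma adjusted p = 1.15e-05). Between the ICH arrays of the 2 slides it was -1.15 (95% interval -1.50 to -0.80, limma adjusted p = 0.000205).

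Pex11a showed the same split, although its pooled value was smaller. It stood at 2.57 to 2.92 in sham, at 2.76 and 2.83 on ICH 2 and ICH 3, and at 1.82, 1.93 and 2.08 on ICH 1, ICH 4 and ICH 5. The difference from sham was 0.11 within slide 1 and -0.74 on slide 2 (limma adjusted p = 0.000172). Lhx1 stood at -0.17 to 0.25 in sham, at -0.10 and -0.02 on the slide 1 ICH arrays, and at -0.75, -0.87 and -0.43 on ICH 1, ICH 4 and ICH 5. Its difference was -0.08 within slide 1 and -0.70 on slide 2 (limma adjusted p = 0.000506). Without ICH 2 or without ICH 3 the pooled differences of these 3 genes passed, at -0.87 and -0.89 for Olfr166, -0.52 and -0.53 for Pex11a and -0.54 and -0.56 for Lhx1 (limma adjusted p = 0.0157 to 0.0475).

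Duox1 and Spats1 differed less. Duox1 stood at -0.92 to -0.21 in sham, at -0.79 and -0.77 on ICH 2 and ICH 3, and at -1.22, -0.90 and -1.15 on ICH 1, ICH 4 and ICH 5, with overlap on ICH 4. Spats1 stood at -2.82 to -2.62 in sham, at -2.77 and -2.68 on the slide 1 ICH arrays, and at -3.16, -2.90 and -3.07 on slide 2. Within slide 1 the differences were -0.09 for Duox1 and -0.01 for Spats1. For slide 2 against sham they were -0.41 (limma adjusted p = 0.0457) and -0.33 (limma adjusted p = 0.0326). The Duox1 call was lost without sham 4, sham 5, ICH 1, ICH 2, ICH 3 or ICH 5 (differences -0.29 to -0.41), and that of Spats1 without sham 1, sham 2, sham 3, ICH 1 or ICH 5 (differences -0.27 to -0.33).

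Between the ICH arrays of the 2 slides, 8 of the 45 genes passed, 4 higher and 4 lower on slide 2, where 21.9% of all probes did. Besides Il2, Mzb1, Olfr166, Pex11a and Lhx1 these were Hyal3, Actb and Anxa8, which are described because they passed here. Hyal3, a hyaluronidase gene, stood at -3.09 to -2.62 in sham, -2.84 and -2.57 on ICH 2 and ICH 3, and -2.06, -2.45 and -1.91 on ICH 1, ICH 4 and ICH 5. Pooled, it passed without ICH 2 or ICH 3 (limma adjusted p = 0.0117 and 0.0336). It was 0.57 higher on slide 2 than on slide 1 (limma adjusted p = 0.0361), a call lost without ICH 1, ICH 2, ICH 3 or ICH 5 and under the 3 other scalings (adjusted p = 0.089 to 0.0903). Anxa8, an annexin gene, stood at -2.06 to -1.54 in sham, at -1.58 and -1.48 on ICH 2 and ICH 3, and at -2.01, -2.07 and -2.22 on slide 2. Its difference between the slides was -0.57 (limma adjusted p = 0.0247), lost without ICH 2, ICH 3 or ICH 5. Against sham Anxa8 stood at -0.32 on slide 2, which passed only under the 3 other scalings or without sham 3 (-0.40, adjusted p = 0.0268). The difference between the slides of Mzb1 was lost without ICH 3 (adjusted p = 0.085), and that of Lhx1 was lost without ICH 2 or ICH 3 (adjusted p = 0.0514 and 0.0853).

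Actb, the cytoplasmic beta-actin gene often used as a loading reference, varied most. It stood at -0.43, 0.51, -1.51, -1.96 and -1.94 on sham 1 to sham 5, at -3.69 and -0.33 on ICH 2 and ICH 3, and at 1.32, 2.06 and 1.80 on ICH 1, ICH 4 and ICH 5. The SD over the sham arrays was 1.08, whereas the median over the 45 genes was 0.18. The slide 2 ICH arrays exceeded those of slide 1 by 3.74 ± 0.79 SE (limma adjusted p = 0.00346). Without ICH 2, the lowest array, this became 2.06 and no longer passed (adjusted p = 0.0813). The pooled difference of 1.30 did not pass (95% interval -0.49 to 3.09, limma adjusted p = 0.321), and without ICH 2 it was 2.28 and did (adjusted p = 0.0103).

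**Figure D2:**
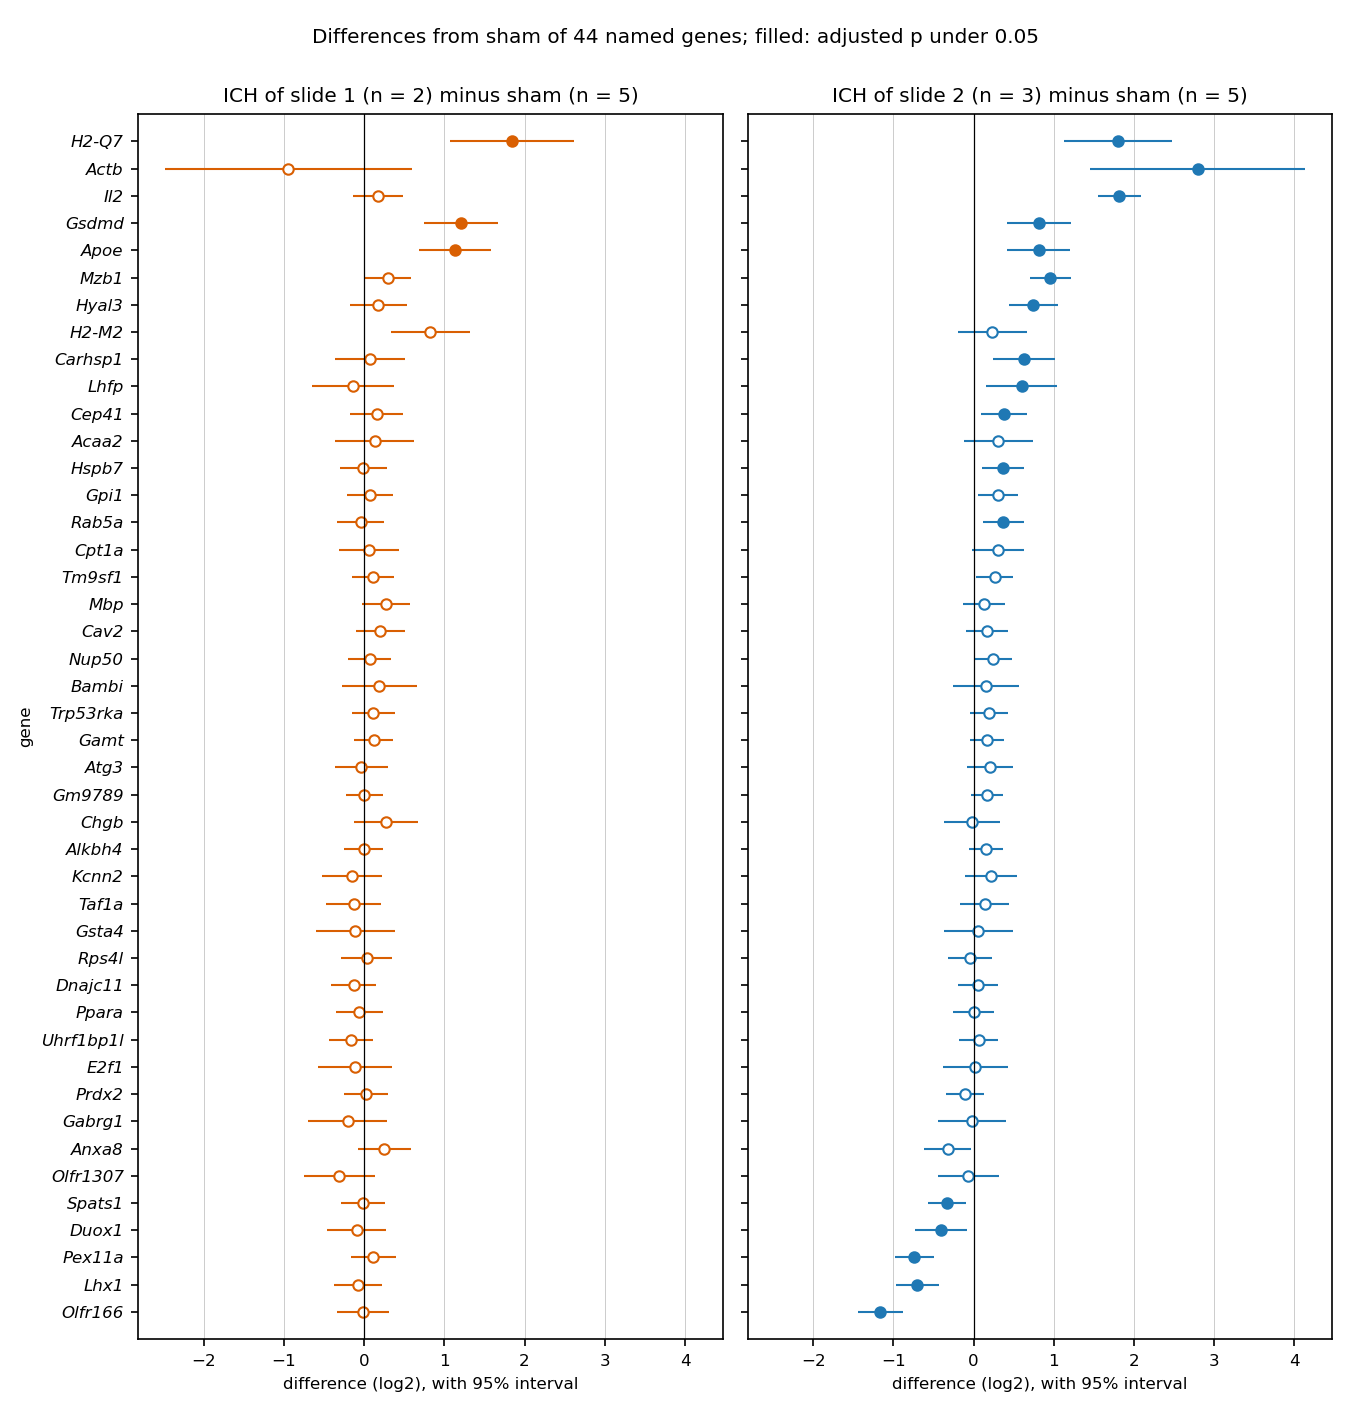
Difference from sham of 44 of the 45 named genes on the log2 scale, with its 95% interval, for the ICH arrays of slide 1 (left, n = 2) and of slide 2 (right, n = 3), both against the same 5 sham arrays; filled points have a limma adjusted p under 0.05. The left panel has 3 filled points, all higher, and the right panel has 17, of which 12 are higher and 5 lower.

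Against sham, the ICH arrays of slide 2 differed in 17 of the 45 genes, 12 higher and 5 lower, where 21.0% and 15.3% of all probes passed in those directions. The higher genes not yet named were Carhsp1, an RNA-binding protein gene that stabilises tumor necrosis factor mRNA, Lhfp, Cep41, a gene of the cilium, Hspb7, a small heat shock protein gene, and Rab5a, the small GTPase of early endosomes. Their differences on slide 2 were 0.62, 0.60, 0.38, 0.37 and 0.37, with limma adjusted p of 0.0139 for Carhsp1 and between 0.0245 and 0.0410 for the rest. Within slide 1 the same genes stood at 0.07, -0.13, 0.16, -0.01 and -0.04, and none passed. How these slide 2 calls hold under the alternatives is not given here. For Carhsp1, sham 4 stood at 1.43, below the 2.10 to 2.23 of the remaining sham arrays. The Hspb7 probe is dim, with a sham mean of -4.96.

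Mbp, the basic protein gene of myelin made by oligodendrocytes, stood at 7.80 to 8.20 in sham, at 8.40 and 8.31 on ICH 2 and ICH 3, and at 8.28, 8.03 and 8.32 on ICH 1, ICH 4 and ICH 5. Every ICH array except ICH 4 lay above all sham arrays, by a small margin. The pooled difference was 0.19 (95% interval -0.05 to 0.43, limma adjusted p = 0.280), or 1.14-fold, and the within-slide difference 0.27 (95% interval -0.03 to 0.58). Its call depended on the scaling. After normexp with quantile normalization the pooled difference was 0.45 (adjusted p = 0.0481), and for slide 2 against sham it was 0.60 with quantile normalization and 0.62 with normexp as well (adjusted p = 0.00109 and 0.000397).

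In the other gene groups, most members passed no comparison. Altogether 27 of the 45 genes passed none of the 4 comparisons, with pooled differences from -0.16 to 0.47. The 95% interval of the pooled difference lay within 2-fold in either direction for all 27, and within 1.5-fold for all but H2-M2 and Acaa2. That difference mixes injury with slide. Within slide 1 some intervals reached further, up to 2.49-fold for H2-M2 and down to 0.595-fold for Olfr1307. Of 6 genes of fatty acid, peroxisome and energy metabolism, only Pex11a passed any comparison. The mitochondrial fatty acid carrier enzyme gene Cpt1a had a pooled difference of 0.20 (95% interval -0.09 to 0.50), and the thiolase gene Acaa2 one of 0.24 (95% interval -0.14 to 0.61). Ppara, the nuclear receptor that drives fatty acid oxidation genes, differed by -0.02 (95% interval -0.25 to 0.21), the glycolytic enzyme gene Gpi1 by 0.21 and the creatine synthesis gene Gamt by 0.15. Within slide 1 these 6 genes ranged from -0.06 to 0.13.

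Of the redox genes, Prdx2, a peroxiredoxin gene, differed by -0.06 (95% interval -0.28 to 0.16) and Gsta4, a glutathione transferase gene for lipid peroxidation products, by -0.01 (95% interval -0.38 to 0.37). Among genes of neurons and receptors, Chgb, of secretory granules, differed by 0.10, Gabrg1, a GABA-A receptor subunit gene, by -0.09 and Kcnn2, a calcium-activated potassium channel gene, by 0.07. None of these 5 passed a comparison. Among vesicle and membrane genes, Cav2, of caveolae, differed by 0.18, Atg3, of autophagosome formation, by 0.11 and Tm9sf1 by 0.20. Among genes of transcription and development, the cell-cycle factor gene E2f1 differed by -0.03, the polymerase I factor gene Taf1a by 0.03 and Bambi, a decoy receptor gene of the TGF-beta family, by 0.17. The nuclear pore gene Nup50 differed by 0.17 (95% interval -0.05 to 0.39). The remaining genes that passed nothing were Gm9789, Trp53rka, Alkbh4, Olfr1307, Uhrf1bp1l, Dnajc11 and Rps4l, at -0.16 to 0.16. For all these genes the arrays allow changes up to the stated limits.

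Of 20 gene lists drawn up for this tissue and injury, 13 had a tested named member and 7 had none. Among the latter were the lists for microglia and macrophages, astrocytes, endothelium, T cells, hemoglobin, and heme and iron. The list of class I MHC and antigen presentation genes had 2 tested members of 29, of which H2-Q7 passed and H2-M2 did not. In the pooled comparison, Gsdmd (inflammasome and pyroptosis) and Apoe (lipid carriers and microglial activation) were each the 1 called member of their list. Both passed within slide 1 too. Mzb1 (B and plasma cells) and Il2 (1 of 2 tested cytokine genes) were likewise called pooled. Neither passed within slide 1 (limma adjusted p = 0.842 and 0.988). Whether other members differ was not measured by a named probe.

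Over all 51669 tested probes, 2560 passed the pooled test, 2071 higher and 489 lower in ICH. Within slide 1, 176 were higher and 3 lower. The ICH arrays of slide 2 differed from sham at 18780 probes (36.3%), 10870 higher and 7910 lower, and from the ICH arrays of slide 1 at 11296, 5677 higher and 5619 lower. Centring each array on its median in place of the 75th percentile moved the median difference of slide 2 against sham from 0.09 to -0.02. It turned the split to 7388 higher and 10132 lower (57.9% to 42.2% higher), and that between the ICH slides to 3697 and 6745 (50.3% to 35.4%). Without ICH 2 or without ICH 3 the pooled count was 10387 or 9845, with 5984 and 5337 higher. The count between the ICH slides was then 5979 or 5663. Without another sham or ICH array the pooled count ran from 438 (without ICH 5) to 1230 (without sham 5). The within-slide count fell to 4 to 11 without ICH 3, sham 1, sham 3 or ICH 2, to 22 to 48 without sham 4, sham 2 or ICH 1 and to 93 without ICH 5.

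The 176 probes higher within slide 1 had a median difference of 1.63 (3.10-fold), with quartiles at 1.23 and 2.35, and 157 of them differed at least 2-fold and 6 at least 16-fold. The sham arrays, ICH 2 and ICH 3 chose these probes, so their sizes are a description.

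These probes were not spread evenly over the probe names. Names with the letters AP1B made up 38.5% of the tested probes and 138 of the 176 higher ones (78.4%), or 0.693% of that class. Names with LNC1A made up 46.2% of the tested probes and gave 32 higher and 2 lower. Names with P alone were 12.3% of the tested probes, with 2 higher and 1 lower. In the pooled comparison the shares past the test were closer, at 5.98% of AP1B, 4.36% of LNC1A and 4.01% of P probes. For slide 2 against sham they were 35.2%, 38.3% and 31.8%. What the letters stand for is not stated in the files, and the authors' deposited table holds no AP1B probe.

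The slides also differed in which brightness range changed. Probes were divided by mean level into 5 bins of equal size. For slide 2 against sham, the dimmest bin had 2734 higher and 617 lower, and the brightest 1524 higher and 3380 lower. Within slide 1 no such tilt was seen among the calls, with 31 and 37 higher in the dimmest and brightest bins and all 3 lower ones in the dimmest. In the pooled comparison the brightest bin had 479 higher and 168 lower, and the dimmest 446 and 46.

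**Figure D3:**
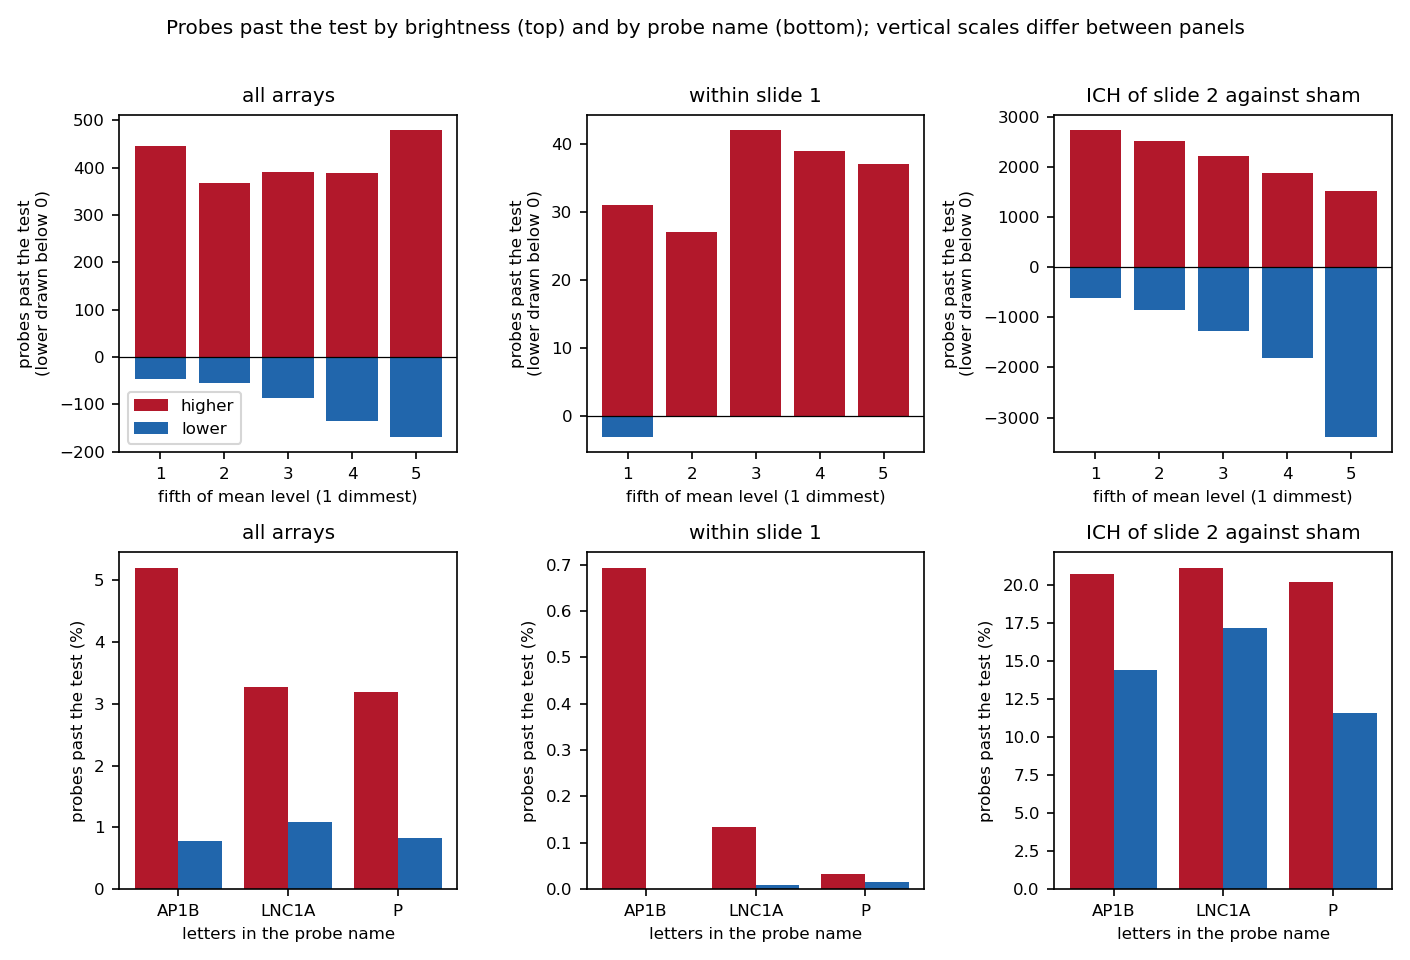
Top, probes past the test in 5 bins of mean level from dimmest to brightest, with higher in ICH above 0 and lower below 0; bottom, percent of probes past the test for the 3 most frequent probe name types, for the pooled comparison, within slide 1 and slide 2 against sham (vertical scales differ). Within slide 1 the AP1B type has 0.693% of its probes higher and none lower, and for slide 2 against sham the lower calls grow from 617 in the dimmest bin to 3380 in the brightest.

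Single probes without a gene name show the size of the largest differences. Probe ASMM10AP1B104825097V4 had the largest rise within slide 1. All sham arrays (-7.79 to -6.40) were not well above background, whereas all 5 ICH arrays were, at -1.06 and -1.42 on ICH 2 and ICH 3 and at -1.51, -4.12 and -1.09 on ICH 1, ICH 4 and ICH 5. Its difference was 6.15 within slide 1 and 5.55 over all arrays (limma adjusted p = 0.00678 and 0.000746). With sham signals set no lower than each array's lowest signal well above background, these became 59.1-fold and 39.1-fold. Neither fold is a lower bound. Sham 2, at -6.40, lay above its array's lowest such signal (-7.67) and was still not well above background. Probe ASMM10AP1B100162193V4 stood at -3.68 to -2.58 in sham, at 2.54 and 3.08 on ICH 2 and ICH 3, and at -0.47, 0.61 and 1.64 on ICH 1, ICH 4 and ICH 5. No array overlapped, and the within-slide difference was 6.07 ± 0.88 SE or 67.3-fold (limma adjusted p = 0.0235).

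Only 3 probes were lower within slide 1, all with both ICH arrays below sham. ASMM10LNC1A103633873V4 stood at -5.01 to -4.23 in sham and at -5.37 and -6.07 on ICH 2 and ICH 3. On ICH 1, ICH 4 and ICH 5 it stood at -5.43, -6.02 and -5.79. It was well above background on all sham arrays, on 1 of the 2 ICH arrays of slide 1 and on none of the 3 of slide 2. Within slide 1 the difference was -1.13 ± 0.22 SE (limma adjusted p = 0.0425), with only 1 of those 2 ICH arrays having measured the probe. For slide 2 against sham the probe was 2.23-fold lower (limma adjusted p = 0.000272), an estimate that rests on ICH signals not well above background. ASMM10LNC1A100094038V4 was lower on slide 1 only, at -5.82 and -5.56 on ICH 2 and ICH 3 against -4.55 to -4.14 in sham and -4.58 to -4.41 on slide 2. Within slide 1 it was 2.44-fold lower (limma adjusted p = 0.0451). That estimate is uncertain, because the probe was not well above background on ICH 2 or ICH 3.

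Detection gave few all-or-none differences. Over the tested probes, 9 were well above background on all 5 ICH arrays and on no sham array, and 5 showed the reverse. Within slide 1 the counts were 24 and 26. For slide 2 against sham, on the arrays with the lower signal, they were 43 and 298. The 5 ICH arrays exceeded the highest sham array at 2029 probes (3.93%) and stayed below the lowest at 581 (1.12%).

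**Figure D4:**
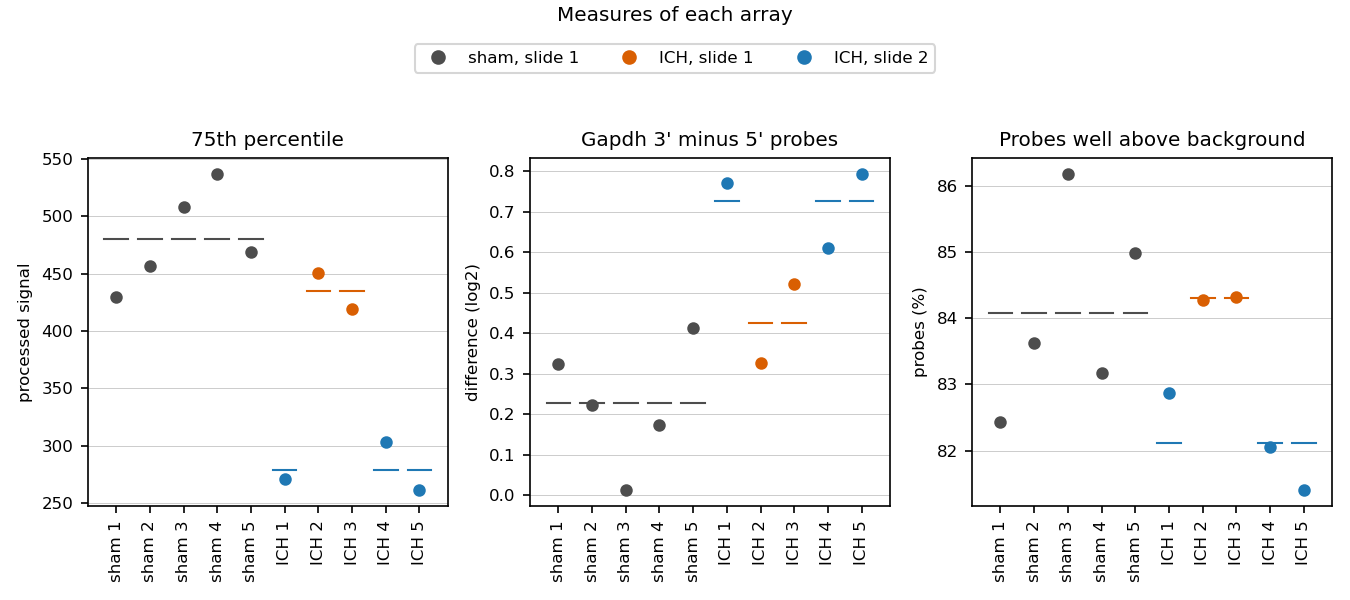
Measures of the 10 arrays, from left to right the 75th percentile of the processed signal, the Gapdh 3' minus 5' difference (log2), and the percent of probes well above background; bars mark the mean of each colour. The ICH arrays of slide 2 have the lowest 75th percentiles (261 to 303) and the largest Gapdh differences (0.61 to 0.79).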

How the data were processed

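Spot intensity came from the authors' deposited scanner files. Per the file headers, the software was Agilent Feature Extraction 11.0.1.1. The processed signal, already corrected for background, was log2-transformed, and the 75th percentile of each array over non-control spots was subtracted. Outlying spots were left out and replicate spots averaged. A deposited table of log2 values by the authors, with no stated method, served as an alternative for counts of probes. Its scale follows quantile-normalized arrays.

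A probe was tested when well above background on at least 5 of 15 arrays (51669 probes). Probes named as controls (132) or with a missing value (169) were left out. limma 3.58.1 (R 4.3.3; lmFit, eBayes, 2-sided, Benjamini-Hochberg adjusted p under 0.05 over all tested probes) was fitted to all 15 arrays, by group for the pooled comparison and by group and slide otherwise. The script was tested on simulated data. Of 50 probes with an accession, 46 matched 1 RefSeq symbol each and 45 were tested, of which 1 is counted but not reported here by name.

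Values on the arrays are given for genes past the pooled or within-slide test, for Mbp and for the 5 smallest p-values in each direction. For named genes the sham arrays are given as a range, except for H2-Q7, Apoe, Gsdmd and Actb. H2-M2, Hyal3, Actb and Anxa8 were added after their values were seen. At most 2 unnamed probes per direction are named, the largest past the within-slide test without overlap. Members, lists and rules were chosen with earlier results of these data known. Alternatives covered scaling, background (normexp on the median signal, as no mean signal was used here), filter, variance, blocks, thresholds and each array left out.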

Additional observations from a re-analysis of the deposited data

Results flagged for a closer look

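Values of 5 arrays were examined in 98 sets (45 genes and 4 array measures, in sham and in ICH). In 3 sets a single array stood apart; about 1 in 20 would by chance. For Carhsp1, sham 4 had 1.43 while the remaining sham arrays had 2.10 to 2.23. Mbp on sham 4 was 7.80, below the 8.12 to 8.20 of the rest. Gsta4 on sham 3 was 0.72, above the -0.22 to 0.04 of the rest.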

How the results depend on the processing

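The pooled count of 2560 probes was 1696 with median centring, 666 of 31704 in the deposited table, 615 with the 10 sham and ICH arrays alone, 179 with the slide as a fixed block, 359 as a random block, 27 without the ICH arrays of slide 2, 294 at an adjusted p under 0.01 and 765 with a 2-fold minimum. The within-slide count of 179 was 65 after quantile normalization, 16 after normexp with quantiles, 1 in the deposited table (which holds 38 of the 179), 53 without a filter, 281 with 10 arrays and 3 at an adjusted p under 0.01. For slide 2 against sham (18780) and between the ICH slides (11296), the deposited table gave 11496 and 7282, and the stricter threshold 12035 and 5993. Leaving out single arrays gave 438 to 10387 pooled, 4 to 220 within slide 1, 15120 to 19687 for slide 2 and 5663 to 12440 between the ICH slides. The cause of these shifts was not tested, and the fixed block is the within-slide comparison itself.

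Equal replicate numbers did not pair the arrays (correlations of deviations -0.341 to -0.032). With them as a replicate block 1126 probes passed pooled and 73 within slide 1, and within slide 1 Olfr166 turned to 0.10, Lhx1 to 0.035 and Duox1 to 0.036, none past the test.

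Of 1110 values of 15 genes under alternatives, 974 kept direction and call, 92 lost the call, 19 gained it and 25 changed sign, none of them in a value that passed the test in the original setting. Of the 25, 1 passed after the change, Mbp between the ICH slides after normexp with quantiles (0.42, limma adjusted p = 0.0324). Pooled, Pex11a turned to 0.11 and Actb to -0.95 with the slide as a fixed block and without the ICH arrays of slide 2, and Anxa8 to 0.25 in both and 0.10 with a random block. Between the ICH slides, quantile normalization gave 0.29 for H2-Q7, 0.21 for Apoe and 0.41 for Mbp, and normexp with quantiles 0.32, 0.17 and 0.42. Without single arrays H2-Q7 ran from -0.235 to 0.319 there, and within slide 1 the ranges were -0.089 to 0.065 for Olfr166, -0.15 to 0.025 for Duox1, -0.054 to 0.034 for Spats1 and -2.63 to 0.73 for Actb.

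With 2 ICH arrays on the slide of the sham arrays, the number of arrays limits what can be detected within slide 1.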
